A study of Homo sapiens with 6 samples.

Results

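The cathepsin proteases described here are 10 genes, *CTSA*, *CTSB*, *CTSC*, *CTSD*, *CTSF*, *CTSH*, *CTSK*, *CTSL*, *CTSS* and *CTSZ*, of 20348 genes in the deposited RNA-seq table. Members were taken by symbol, and each matched 1 row. The list was chosen by the measured counts of the same Ctrl and WNK463 samples, with results of this comparison already known and *CTSD* among them, so the differences between groups are given for these 10 genes as a description, without p-values. RNA-seq was performed on MV4-11, an acute myeloid leukemia (AML) cell line, in 3 control samples labelled as untreated (Ctrl) and in 3 samples that received 1 μM WNK463, an inhibitor of the WNK kinases, with RNA collected at 48 h. All samples are of 1 cell line, 1 dose and 1 time point. No source used here says whether the control cells received a vehicle or whether the 3 samples of a group were separate cultures, so the tests measure only the spread between these samples.

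Cathepsins are proteases of endosomes and lysosomes. Most are cysteine proteases of the papain family, which are made as inactive proenzymes, tagged with mannose 6-phosphate in the Golgi, and activated by cleavage in the acidic lumen. CTSD is an aspartic protease and CTSA a serine carboxypeptidase. In myeloid cells these enzymes degrade phagocytosed protein, trim the invariant chain of MHC class II, and activate the serine proteases stored in azurophil granules, while cystatins bind and block the cysteine cathepsins.

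Total counts per sample lay between 14915745 and 17411780. Expression within a gene is reported in CPM, with 1000000 as the scale and library sizes normalised by TMM, and in the authors' TPM where genes of different length are compared. Markers of leukemic myeloid cells were present, with summed levels of 1096 to 1139 CPM in Ctrl and 1180.0 to 1205 CPM in WNK463 over 8 genes. Of these, *HOXA9*, *MEIS1*, *CSF1R* and *CEBPA* rose, *MPO*, *CD33* and *FLT3* fell, and *SPI1* did not pass (adjusted p = 0.97). A list of 10 macrophage markers went from summed levels of 3.42 to 4.32 CPM in Ctrl to 22.7 to 23.3 CPM in WNK463. Much of this was *C1QA*, which went from 0.985 to 13.1 CPM on average. Of the 6 tested genes of the list 5 rose, beside 35.5% of all tested genes, and *MARCO* did not pass (log2 fold change -0.27, adjusted p = 0.49). The list's markers *CD163*, *MRC1* and *MSR1* had at most 3 counts in every sample. The part of these markers in the cathepsin differences was not tested. In bulk RNA, fewer cells of a type and less RNA per cell cannot be told apart.

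In the GENCODE 29 annotation of GRCh38, *CTSD* (ENSG00000117984) lies on chromosome 11 from 1752752 to 1764573, *CTSC* (ENSG00000109861) on chromosome 11 from 88293592 to 88337787 and *CTSF* (ENSG00000174080) on chromosome 11 from 66563463 to 66568841, all on the minus strand. *CTSA* (ENSG00000064601) lies on the plus strand of chromosome 20 from 45890144 to 45898820, and *CTSZ* (ENSG00000101160) on its minus strand from 58995185 to 59007247. *CTSH* (ENSG00000103811) is on the minus strand of chromosome 15 from 78921058 to 78949574, and *CTSL* (ENSG00000135047) on the plus strand of chromosome 9 from 87725519 to 87731393. *CTSS* (ENSG00000163131, 150730196 to 150765957) and *CTSK* (ENSG00000143387, 150796208 to 150808323) are neighbours on the minus strand of chromosome 1, separated by 30250 bases. *CTSB* is ENSG00000164733. All 10 are protein-coding.

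Sequence shared with other genes bears on some of these counts. *CTSD* shares 41.7% of its exonic bases with a protein-coding gene annotated across it on the same strand (ENSG00000250644, AC068580.4), and 36.5% of its 50-base words occur in that gene's transcripts. That gene had 48 to 108 counts in the Ctrl samples and 347 to 441 counts in the WNK463 samples, against 5502 to 6883 and 21485 to 22684 for *CTSD*. With both genes added, the log2 ratio of the group means was 1.80, against 1.79 for *CTSD* alone. *CTSA* shares 17.7% of its exonic bases with *NEURL2* on the opposite strand, which had 0 to 20 counts per sample. Whether the library kept strand is not given in the sources used here. For the other 8 genes at most 1.46% of the 50-base words occurred in other genes.

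Lysosomal genes are often bound by the MiT/TFE transcription factors at E-boxes with the core letters CACGTG, so the promoters of the members were searched for this core. RefSeq promoters (GRCh38.p14, 250 bases before to 50 after the start) were matched for *CTSA*, *CTSC*, *CTSD*, *CTSF*, *CTSH*, *CTSL* and *CTSZ*. The core, which reads the same on both strands, was found in 3 of these 7, against 7.43% of 27305 promoters of the same length. Among the lists described below, it was in 3 of 6 other lysosomal peptidases, 2 of 5 processing and partner genes and 3 of 8 sorting genes. It was in 2 of 8 MiT/TFE factors and regulators and 3 of 16 glycosidases, sulfatases and lipases. None of 3 other cathepsins, 5 inhibitors and 8 granule proteases held it. The longer form CACGTGA, on either strand and overlapping the core, was found in the same 3 promoters, against 3.82% of all. The 130 bases before the start are shown for these 3 genes and for *CTSH*, which has no core there, 5′ to 3′ on the gene's strand, with the core in capitals.
CTSA, chr20:45891205-45891334, plus strand: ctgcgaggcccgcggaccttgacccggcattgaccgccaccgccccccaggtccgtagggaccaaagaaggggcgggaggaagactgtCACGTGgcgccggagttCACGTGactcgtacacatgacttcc
CTSD, chr11:1763928-1764057, minus strand: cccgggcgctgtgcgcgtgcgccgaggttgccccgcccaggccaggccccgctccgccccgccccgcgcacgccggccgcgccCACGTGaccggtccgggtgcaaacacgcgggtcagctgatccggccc
CTSF, chr11:66568607-66568736, minus strand: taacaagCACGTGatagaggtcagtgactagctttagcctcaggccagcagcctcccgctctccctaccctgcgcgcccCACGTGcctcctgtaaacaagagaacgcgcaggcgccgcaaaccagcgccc
CTSH, chr15:78945047-78945176, minus strand: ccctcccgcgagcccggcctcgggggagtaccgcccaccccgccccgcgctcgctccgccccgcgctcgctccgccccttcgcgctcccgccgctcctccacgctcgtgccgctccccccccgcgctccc
The core begins 47 bases before the start in *CTSD*, 42 and 25 bases before it in *CTSA*, and 123 and 51 bases before it in *CTSF*. The 3 genes that hold it had log2 fold changes (WNK463 minus Ctrl) of 1.79, 0.090 and -0.22 for *CTSD*, *CTSA* and *CTSF*, while *CTSH*, *CTSC* and *CTSZ*, without it in the searched promoter, had 1.53, 0.40 and -0.12, the last of which turned to 0.031 with total counts. *CTSL*, also without it, was not tested. A purine-rich core bound by ETS factors such as PU.1, GAGGAAG on either strand, was found in *CTSA*, *CTSH* and *CTSL*, 3 of the 7, against 13.4% of all promoters.

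After WNK463 treatment the cathepsins went in both directions. *CTSD*, *CTSK* and *CTSH* were about 3 times as high as in Ctrl by fit, with folds of 3.45, 3.04 and 2.88, and *CTSC* was 1.32 times as high. *CTSS* was lower, at 0.549 of its Ctrl level. *CTSA*, *CTSB*, *CTSF* and *CTSZ* lay within 0.23 of 0 on the log2 scale, with fitted values of 0.090, 0.038, -0.22 and -0.12. Of the 10 genes, 9 passed the filter on low counts, all of them also with at least 10 counts in every sample, and *CTSL* did not. With edgeR's quasi-likelihood test at an adjusted p below 0.05, 4 of the 9 were higher and 2 lower, which is 66.7% against 70.8% of all 11973 tested genes, and 3 were also past a log2 fold change of 1, against 15.2% of all genes. Those 3 were all higher, beside 9.62% of all genes that were higher and 5.55% lower by this rule. The groups did not overlap in CPM in 6 of the 9, with 4 higher and 2 lower, against 73.5% of all genes (37.1% higher and 36.4% lower). With total counts in place of TMM factors 6 passed as higher and 1 as lower. Nothing is read from these shares, since the list was made with this comparison known. For the same reason, whether a single member passed is given here and below only as a description. Over the 9 genes the median log2 fold change was 0.090, and over all 11973 it was 0.016.

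**Figure D1:**
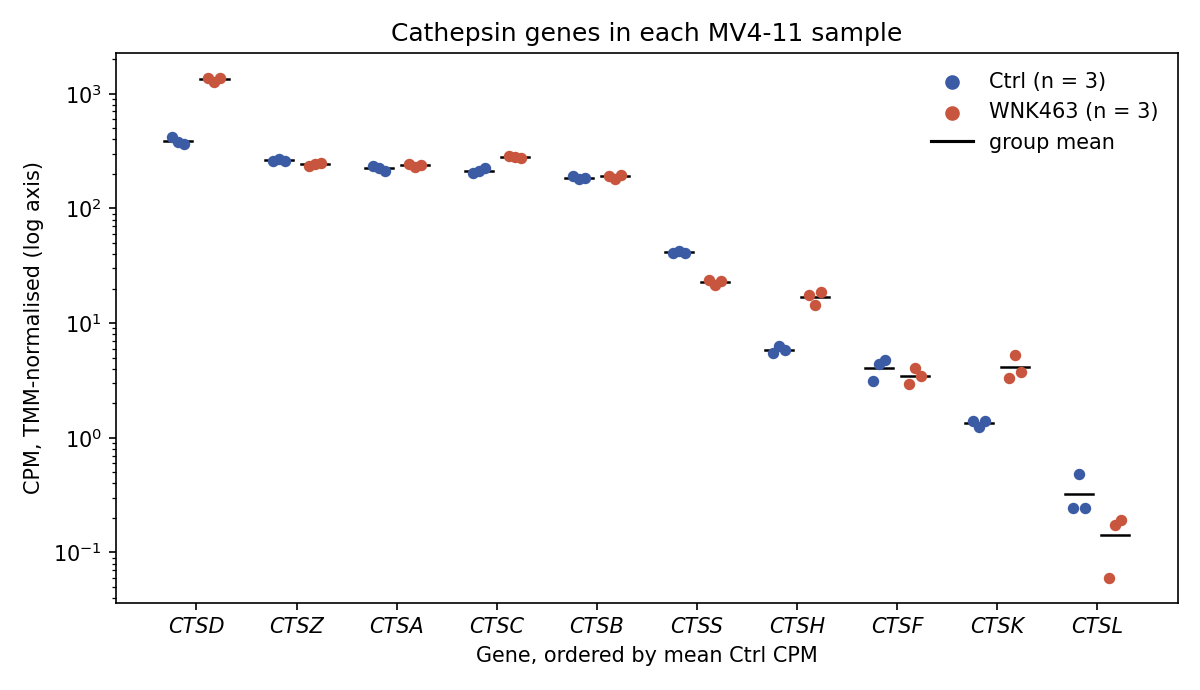
Level of each cathepsin gene in CPM on a log axis for the 3 Ctrl and 3 WNK463 samples, with a point per sample and a line at the group mean. *CTSD* moved from 365 to 419 CPM up to 1268 to 1372 CPM. *CTSH*, *CTSK* and *CTSC* were also higher in every WNK463 sample. *CTSS* and, by less, *CTSZ* were lower in every one, as was *CTSL*, which was not tested.

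*CTSD* encodes the main aspartic protease of the lysosome. Its levels were 419, 377 and 365 CPM in the Ctrl samples and 1369.9, 1268 and 1372 CPM in the WNK463 samples. All WNK463 samples lay far above all Ctrl samples, with a spread of 28.4 CPM (SD, n = 3) in Ctrl and 59.4 CPM in WNK463. The log2 fold change was 1.79 with a standard error of 0.055, and it stayed between 1.73 and 1.84 when each sample was left out in turn. By this value *CTSD* had place 421 of the 11973 tested genes, counted from the highest. By mean TPM it was the gene at place 381 of the table in Ctrl and at place 96 in WNK463, and its transcripts went from 0.0355% to 0.139% of all TPM.

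*CTSA*, also known as protective protein, is the serine carboxypeptidase that holds beta-galactosidase and neuraminidase 1 in a complex. Its levels were 233, 223 and 214 CPM in Ctrl and 244, 229.8 and 239 CPM in WNK463. The groups overlapped, and the log2 fold change of 0.090 (standard error 0.049) was close to the median of all genes. It did not pass the test with all samples and passed without Ctrl replicate 1, at 0.12.

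Among the cysteine cathepsins that cut within proteins, *CTSB* and *CTSS* were the most abundant. *CTSB*, which also removes dipeptides from C-terminal ends, had 190.2, 181 and 183 CPM in Ctrl and 193, 179 and 197 CPM in WNK463, so the groups overlapped. Its log2 fold change was 0.038 (standard error 0.051). *CTSS*, which completes the degradation of the MHC class II invariant chain in antigen-presenting cells, had 40.8, 42.9 and 41.2 CPM in Ctrl and 23.6, 21.7 and 23.3 CPM in WNK463. Every WNK463 sample was below every Ctrl sample, and the log2 fold change of -0.86 (standard error 0.073) was the lowest of the 9 genes.

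*CTSK*, best known as the collagen-degrading protease of osteoclasts, was scarce. It had 23, 18 and 23 counts in Ctrl, or 1.40, 1.23 and 1.40 CPM, and 55, 90 and 59 counts in WNK463, or 3.32, 5.23 and 3.77 CPM. The groups did not overlap, and WNK463 replicate 2 was the highest. The log2 fold change was 1.604 with a standard error of 0.26, and 1.39 without that sample. *CTSK* rose while its chromosomal neighbour *CTSS* fell, so that the ratio of *CTSK* to *CTSS* in TPM, which no scaling of the library changes, was 0.0313 to 0.0361 in the Ctrl samples and 0.181 to 0.289 in the WNK463 samples. Of 6 osteoclast markers, *ACP5*, *CALCR*, *DCSTAMP* and *TNFRSF11A* had at most 3 counts in every sample, *OSCAR* rose from 15.6 to 26.3 CPM on average (log2 fold change 0.75, adjusted p = 4.2e-07), and *OCSTAMP* had 1.37 and 1.75 CPM (adjusted p = 0.35). The summed osteoclast list was 16.6 to 17.7 CPM in Ctrl and 27.7 to 28.98 CPM in WNK463. Its part in the *CTSK* value was not tested.

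*CTSF* and *CTSL* had the fewest counts beside *CTSK*. *CTSF* had 51, 64 and 78 counts in Ctrl and 49, 70 and 54 in WNK463, or 3.11, 4.39 and 4.76 CPM against 2.96, 4.07 and 3.45 CPM. The groups overlapped, and the standard error of its log2 fold change (-0.22) was 0.22, so a difference of this size was not detectable at this depth. *CTSL*, a major endopeptidase of lysosomes in many tissues, had 4, 7 and 4 counts in Ctrl and 1, 3 and 3 in WNK463. These 3 WNK463 samples are all at or under 3 counts, and no fold is given. *CTSV*, its closest human relative, had 0 to 3 counts.

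The remaining cysteine cathepsins trim proteins from their ends. *CTSC*, or dipeptidyl peptidase I, removes N-terminal dipeptides and thereby activates granule serine proteases. Its levels were 202, 212 and 224 CPM in Ctrl and 288, 279 and 275 CPM in WNK463. The WNK463 samples were all higher, with a log2 fold change of 0.40 (standard error 0.049) that stayed between 0.36 and 0.43 with each sample left out. *CTSH*, an aminopeptidase, had 5.54, 6.31 and 5.79 CPM in Ctrl and 17.6, 14.5 and 18.7 CPM in WNK463. The lowest WNK463 sample was more than 2 times the highest Ctrl sample, and the log2 fold change was 1.53 (standard error 0.13). *CTSZ*, a carboxypeptidase that takes off single residues, had 260.0, 271 and 262 CPM in Ctrl and 234, 244 and 249.9 CPM in WNK463. *CTSZ* passed the test as lower with a log2 fold change of -0.12 (standard error 0.046), but this direction turned to 0.031 with scaling by total counts and to 0.049 with limma on log2(TPM + 1), and the call was lost without Ctrl replicate 2 (-0.11), without WNK463 replicate 1 (-0.097), or when genes under 10 counts in any sample were dropped (-0.10).

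The scaling of the libraries mattered for the small differences. TMM factors were 0.944 to 0.951 in Ctrl and 1.05 to 1.06 in WNK463, and scaling by total counts moved the median over the 11973 genes up by 0.15 on the log2 scale. With total counts the values were 1.94 for *CTSD*, 1.76 for *CTSK*, 1.68 for *CTSH*, 0.55 for *CTSC* and -0.71 for *CTSS*, so these 5 kept their direction. *CTSA* and *CTSB* then passed as higher, with 0.24 and 0.19, beside a median of 0.17 for all genes. On TPM, which the authors scaled to 1000000 per sample, both also passed with limma, at 0.28 and 0.25 with a pseudocount of 1.

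**Figure D2:**
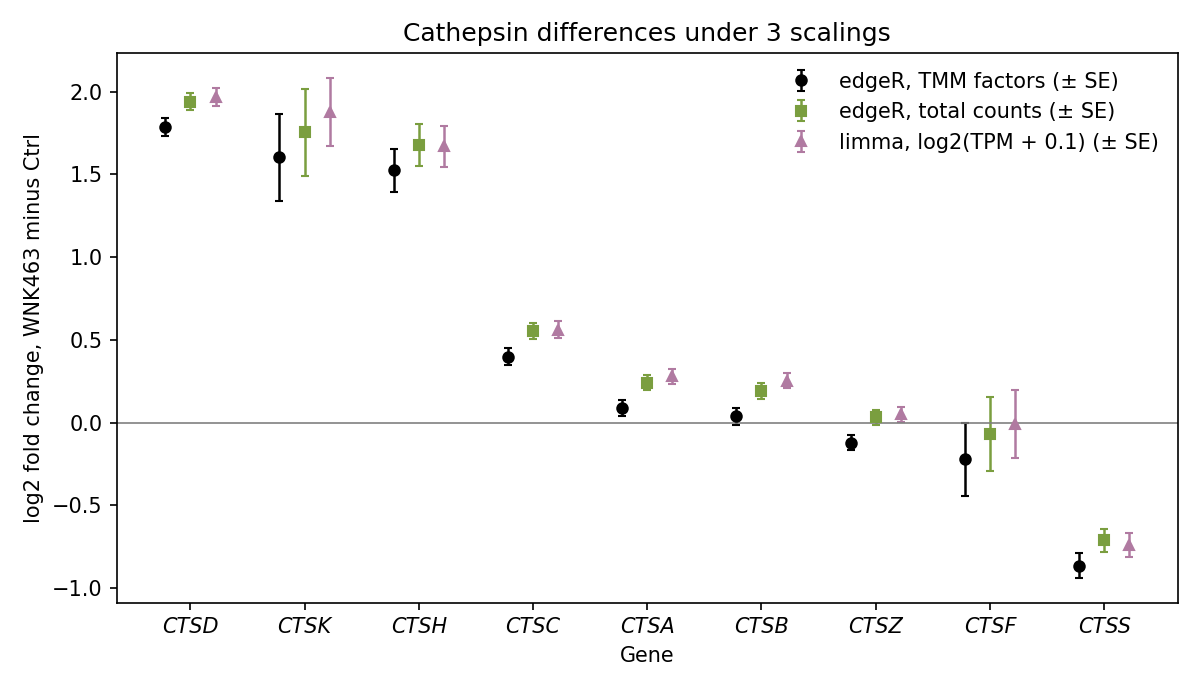
Log2 fold change (WNK463 minus Ctrl) of the 9 tested cathepsin genes with its standard error, from edgeR with TMM factors, edgeR with total counts, and limma on log2(TPM + 0.1). *CTSD*, *CTSK*, *CTSH* and *CTSC* lie above 0 and *CTSS* below 0 under each scaling, while *CTSZ* changes sign.

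On the TPM scale, which takes account of transcript length, the order of the 10 genes in Ctrl was *CTSD* (355), *CTSZ* (320.2), *CTSA* (222), *CTSC* (221), *CTSB* (163), *CTSS* (37.7), *CTSH* (7.88), *CTSF* (3.73), *CTSK* (1.27) and *CTSL* (0.387), as mean TPM of 3 samples. Of neighbours in this order, *CTSA* and *CTSC* overlapped in their sample ranges and the others did not. In WNK463 the order was *CTSD* (1389.6), *CTSZ* (331), *CTSC* (327), *CTSA* (270.0), *CTSB* (195), *CTSH* (25.4), *CTSS* (22.5), *CTSK* (5.001), *CTSF* (3.68) and *CTSL* (0.202). Here *CTSZ* and *CTSC*, *CTSH* and *CTSS*, and *CTSK* and *CTSF* overlapped in their ranges. *CTSH* and *CTSS*, which were several-fold apart in Ctrl, were thus at like levels after treatment.

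Summed over the 10 genes, cathepsin transcripts made up 1338, 1342 and 1321 TPM in the Ctrl samples and 2608, 2497 and 2602 TPM in the WNK463 samples. The sum was 1.93 times as high with WNK463 in TPM and 1.76 times as high in CPM, and most of the gain was *CTSD*. Without *CTSD* the sum was 978 ± 17.7 TPM in Ctrl and 1179 ± 9.36 TPM in WNK463 (SD, n = 3 each), or 938 ± 3.38 and 998 ± 18.1 in CPM, a ratio of 1.21 in TPM and 1.06 in CPM. *CTSD* made up 26.6% ± 1.54 of the cathepsin TPM in Ctrl and 54.1% ± 0.772 in WNK463 (SD, n = 3 each). The share of *CTSZ* went from 24.0% to 12.9%, that of *CTSB* from 12.3% to 7.57% and that of *CTSS* from 2.83% to 0.876%. In mean TPM itself *CTSZ* was at 320.2 and 331 and *CTSB* at 163 and 195. On the TPM scale only their shares fell, while *CTSZ* went from 264 to 243 in mean CPM. *CTSS* fell in TPM too, from 37.7 to 22.5. Within a sample the ratio of *CTSD* to *CTSB* in TPM was 2.06 to 2.30 in Ctrl and 7.07 to 7.23 in WNK463.

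**Figure D3:**
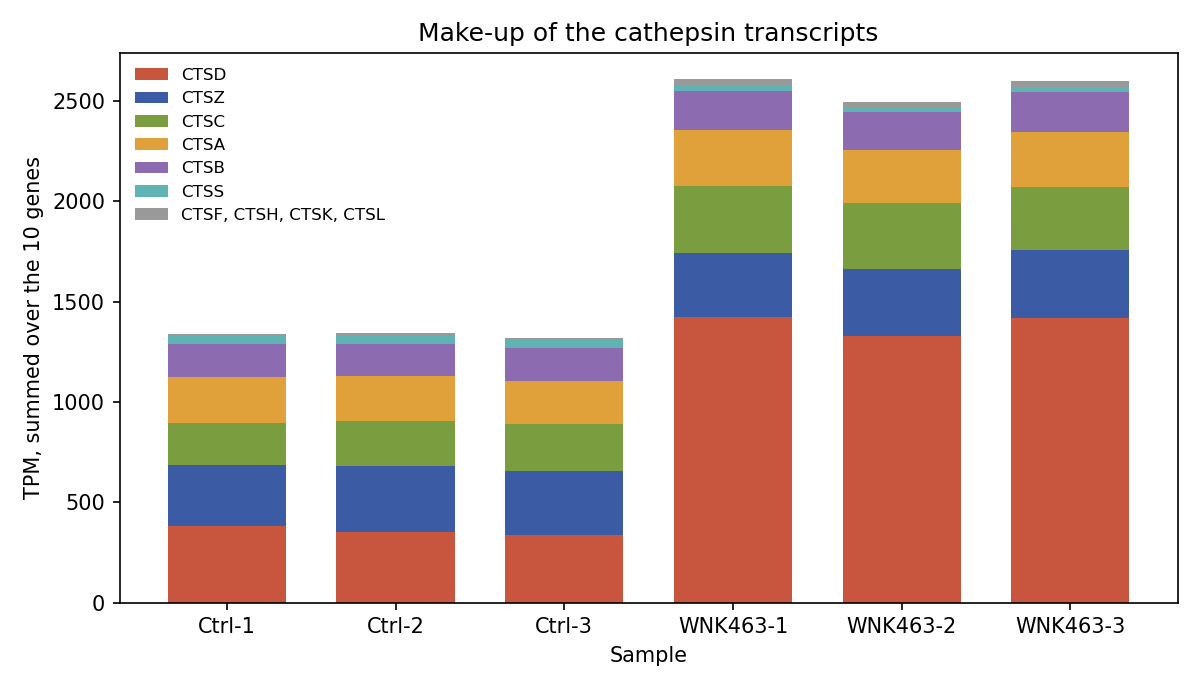
Summed TPM of the 10 cathepsin genes in each of the 6 samples, stacked by gene, with *CTSF*, *CTSH*, *CTSK* and *CTSL* together. The bars reach 1321 to 1342 TPM in Ctrl and 2497 to 2608 TPM in WNK463, and the *CTSD* section accounts for most of the difference.

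The other human cathepsin genes, which were not in the list above, were tested with edgeR over all genes. This list and those below were also chosen with earlier results of these data known, so their shares are a description. *CTSG*, a serine protease of azurophil granules, fell from 117 ± 4.64 to 85.6 ± 1.17 CPM (SD, n = 3 each), with a log2 fold change of -0.45 (standard error 0.052, adjusted p = 5e-07). *CTSW*, a cysteine protease known from cytotoxic lymphocytes, rose from 3.18 ± 0.316 to 6.44 ± 0.553 CPM, a log2 fold change of 1.02 (standard error 0.18, adjusted p = 6.3e-05). *CTSO* rose from 14.6 to 18.2 CPM, by 0.31 on the log2 scale (adjusted p = 0.0071). None of these 3 genes overlapped between groups, beside 73.5% of all tested genes, and 70.8% of all genes passed. Of 6 T and NK cell markers, *NKG7* rose from 11.7 to 16.1 CPM (log2 fold change 0.46, adjusted p = 0.0015), and *CD3D*, *CD3E*, *CD3G*, *CD2* and *KLRD1* had 0 to 1 counts in every sample. The part of these markers in the *CTSW* value was not tested. *CTSE* was at 0 counts in every sample and *CTSV* was below the filter on low counts.

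Of 12 genes for inhibitors of cysteine cathepsins, 4 passed the filter, and 1 of these 4 rose, beside 70.8% of all tested genes that passed in either direction. *CSTA*, or stefin A, had 22.04, 24.3 and 29.1 CPM in Ctrl and 31.9, 35.8 and 29.3 CPM in WNK463, a log2 fold change of 0.36 (standard error 0.099, adjusted p = 0.0034). The highest Ctrl sample was just below the lowest WNK463 sample. *CST3*, or cystatin C, the most abundant of them, had 406 ± 20.7 CPM in Ctrl and 406 ± 15.2 CPM in WNK463 (SD, n = 3 each), with a fitted difference of -0.00033 (adjusted p = 1) that became 0.15 with total counts. *CST7*, or cystatin F, which acts on CTSC, had 3.38 and 4.75 CPM on average (log2 fold change 0.48, adjusted p = 0.063), and *CSTB* had 30.4 and 26.9 CPM (-0.18, adjusted p = 0.081, but 0.011 with limma on TPM). *CST7* passed without Ctrl replicate 1 (0.77) and *CSTB* without WNK463 replicate 3 (-0.26). With total counts 3 of the 4 passed as higher. The 4 cystatin genes summed to 1101 ± 31.6 TPM in Ctrl and 1242 ± 36.3 TPM in WNK463 (SD, n = 3 each). The 8 cysteine cathepsins of the list summed to 756 ± 23.5 and 909 ± 3.40 TPM. These log2 ratios were 0.17 and 0.27, beside a median of 0.16 for all genes with limma on log2(TPM + 1). In CPM the 8 cathepsins summed to 715 ± 9.87 in Ctrl and 761 ± 12.1 in WNK463, a ratio of 1.06.

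Genes for binding partners and substrates of cathepsins, and for a reductase that acts beside them, were higher after treatment. The list of 7 also held the processing enzyme gene *LGMN*, which was not tested. All 6 tested genes were higher at an adjusted p below 0.05, against 35.5% of all tested genes. Their median log2 fold change was 0.52, beside 0.016 for all genes. Nothing is read from this share, since the list was chosen with earlier results of these data known. *IFI30*, the thiol reductase that opens disulfide bonds for lysosomal proteolysis, rose from 43.6 ± 2.01 to 90.4 ± 9.70 CPM (SD, n = 3 each, log2 fold change 1.05, adjusted p = 6.3e-10). *CD74*, the invariant chain that CTSS and CTSL trim, rose from 392 ± 6.57 to 676 ± 29.3 CPM (0.79, adjusted p = 5.8e-11). *PSAP*, the saposin precursor that CTSD cleaves, rose from 162 to 251 CPM (0.63, adjusted p = 8.5e-09). *GRN*, whose product progranulin binds CTSD, rose by 0.32 (adjusted p = 8.3e-05), and the partners of CTSA in its complex, *GLB1* and *NEU1*, rose by 0.33 (adjusted p = 1e-04) and 0.42 (adjusted p = 3.4e-05) on the log2 scale. *LGMN*, the asparaginyl endopeptidase that processes several cathepsins, had 1 to 5 counts per sample and was not tested.

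Sorting genes of lysosomal enzymes, most of them of the mannose 6-phosphate route, went both ways. Of 9 tested genes, 2 rose and 2 fell, which is 44.4% against 70.8% of all genes, with a median of 0.070. *GNPTAB*, which encodes the phosphotransferase that starts the tag, rose from 63.5 ± 4.44 to 119 ± 3.98 CPM (SD, n = 3 each, log2 fold change 0.91, adjusted p = 2.5e-10). *IGF2R*, the larger mannose 6-phosphate receptor, rose by 0.20 (adjusted p = 0.0011). The adaptors *GGA3* and *GGA1* fell by 0.45 (adjusted p = 4.9e-06) and by 0.26 (adjusted p = 0.0015), and *GGA1* did not pass with total counts, at -0.11, and was at 0.038 with limma on log2(TPM + 1). *GNPTG*, *M6PR*, *NAGPA*, *GGA2* and *SORT1* did not pass, with 0.15 (adjusted p = 0.12), 0.070 (adjusted p = 0.17), 0.020 (adjusted p = 0.82), -0.10 (adjusted p = 0.066) and 0.56 (adjusted p = 0.070). *GGA2* passed without Ctrl replicate 3 (-0.15), but was at 0.049 with total counts, and *SORT1* without WNK463 replicate 3 (0.73). With total counts 7 of the 9 passed, 6 higher and 1 lower.

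The granule serine proteases that CTSC activates were mostly lower after treatment. Of 12 such genes, including the protease homologue *AZU1*, 5 were tested and 4 fell, against 35.3% of all tested genes that fell. Their median was -1.20. Nothing is read from this share either, since the list was chosen with earlier results known. *PRTN3*, or proteinase 3, went from 795 ± 15.1 to 327 ± 23.3 CPM (SD, n = 3 each, log2 fold change -1.28, adjusted p = 4.7e-13). *ELANE*, or neutrophil elastase, had 237, 224 and 217 CPM in Ctrl and 96.6, 96.4 and 103 CPM in WNK463 (-1.20, adjusted p = 1.4e-12). *PRSS57* fell from 77.3 to 26.4 CPM (-1.55, adjusted p = 2.4e-12), and *CTSG* is given above. *MPO*, which encodes the myeloperoxidase of the same granules and was among the myeloid markers, fell from 7.47 to 1.31 CPM (-2.50, adjusted p = 3e-08), and its part in these values was not tested. *AZU1*, or azurocidin, had 609 ± 38.4 and 571 ± 14.7 CPM (-0.093, adjusted p = 0.10), which became 0.059 with total counts, and it passed without Ctrl replicate 3, at -0.15. The granzymes *GZMA*, *GZMB*, *GZMH*, *GZMK* and *GZMM* had at most 2 counts in every sample, and *TPSAB1* had 0. *CMA1*, also untested, went the other way, with 1, 0 and 0 counts in Ctrl and 7, 9 and 4 in WNK463. With no filter on low counts, 1 of 8 tested genes of the list passed as higher.

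Among other peptidases of the lysosome, 3 of 6 tested genes rose and 3 fell, beside 35.5% and 35.3% of all tested genes, and with total counts 3 rose and 2 fell. The serine carboxypeptidase gene *SCPEP1* rose from 63.1 ± 1.58 to 128 ± 5.19 CPM (SD, n = 3 each, log2 fold change 1.02, adjusted p = 1.9e-11) and *PRCP* from 25.4 to 46.8 CPM (0.88, adjusted p = 8.3e-09). *CPQ* passed at 0.19 (adjusted p = 0.042), but not with DESeq2 and not in 5 of the 6 fits without 1 sample. *CPVL*, another serine carboxypeptidase, fell from 2.58 ± 0.460 to 0.694 ± 0.315 CPM (-1.90, adjusted p = 1.1e-04), with -0.85 in limma on log2(TPM + 1), and it was left out where 10 counts were required throughout. Also, *DPP7* fell by 0.58 (adjusted p = 7.2e-08) and *TPP1* fell by 0.22 (adjusted p = 3.3e-04), the last of which did not pass with total counts, at -0.069.

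The lysosomal enzymes that do not cut proteins, 25 genes for glycosidases, sulfatases and lipases, were divided as well. All 25 were tested, 14 rose and 8 fell, which is 88.0% against 70.8% of all genes, with a median of 0.21, and with total counts 14 rose and 5 fell. *GLB1* and *NEU1* are in this list as well as in that of the partner genes. The 4 largest differences were increases, in *ASAH1* for acid ceramidase from 59.7 to 189.6 CPM (log2 fold change 1.67, adjusted p = 6.1e-14), *IDS* for iduronate sulfatase from 46.4 to 113 CPM (1.29, adjusted p = 3.8e-12), *FUCA1* for alpha-fucosidase from 59.5 to 129.6 CPM (1.12, adjusted p = 4.2e-12) and *SGSH* for sulfamidase from 3.34 to 7.20 CPM (1.10, adjusted p = 2.5e-05). *CTSD*, with 1.79, lay above all 25, whose values ran from -0.84 to 1.67. The difference between *CTSD* and these genes was not tested.

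The MiT/TFE factors, which activate lysosomal genes, were tested with 5 other regulators of these factors or of lysosomal genes. Of these 9 genes 5 rose and 1 fell, which is 66.7% against 70.8% of all tested genes. With total counts 6 rose and 0 fell. *TFEC*, the family member most restricted to macrophage-lineage cells, rose from 60.9 ± 5.27 to 89.8 ± 6.30 CPM (SD, n = 3 each, log2 fold change 0.56, adjusted p = 1e-06), *TFE3* rose from 43.8 to 61.0 CPM (0.48, adjusted p = 3.3e-06), and *TFEB* from 22.3 to 28.1 CPM (0.33, adjusted p = 0.0090). *TFEB* did not pass without Ctrl replicate 2, at 0.19. *MITF*, at 2.13 and 3.22 CPM, passed with 0.60 (adjusted p = 0.037), but not with DESeq2, not with limma on TPM and not in 5 of the 6 fits without 1 sample. *RRAGC*, a GTPase that recruits these factors to the lysosome, rose by 0.56 (adjusted p = 1.6e-06), and *FLCN*, which acts on it, fell by 0.24 (adjusted p = 0.0088) but not with total counts, at -0.093. *RRAGD*, *MCOLN1* and *ZKSCAN3* did not pass, with 0.50 (adjusted p = 0.13), 0.078 (adjusted p = 0.46) and -0.19 (adjusted p = 0.25), and *RRAGD* passed without Ctrl replicate 1, at 0.82, as did *MCOLN1* with total counts, at 0.23.

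**Figure D4:**
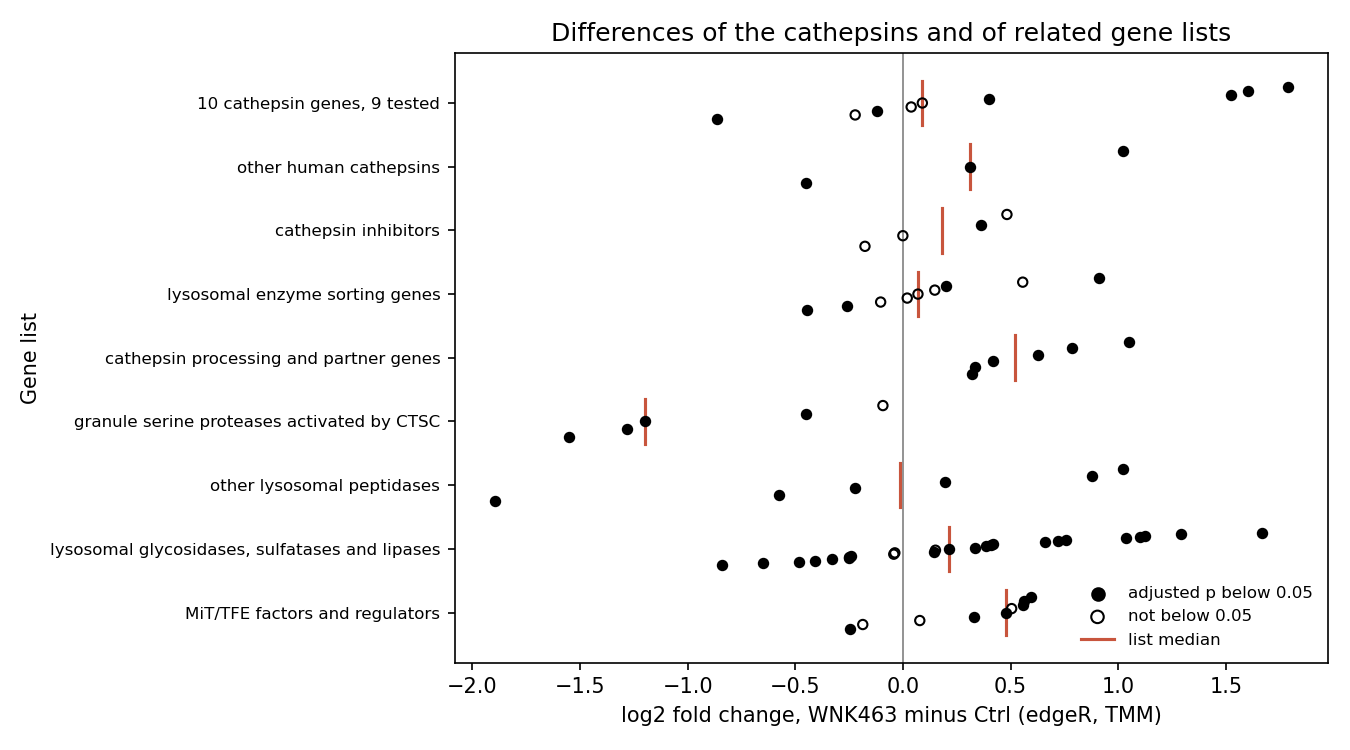
Log2 fold change (WNK463 minus Ctrl, edgeR with TMM factors) of every tested gene in the cathepsin group and in 8 related lists, with a point per gene, filled where the adjusted p was below 0.05, and a line at each list's median. The 5 granule proteases lie below 0 with a median of -1.20 (*AZU1* at 0.059 with total counts), the 6 tested genes of the processing and partner list, without *LGMN*, lie above 0, and the cathepsins run from -0.86 to 1.79.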

How the data were processed

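RNA-seq of 3 Ctrl and 3 WNK463 samples was analysed, with groups and replicate numbers from the sample titles. The submitters' processing notes name fastp, Bowtie2, HISAT2, StringTie, RSEM, DESeq2, edgeR and GRCh38, with no role, and the annotation release is not given in the sources used here. The authors deposited whole-number counts per gene and sample, treated here as rounded estimated counts since how they were counted is not given in the sources used here, and TPM values scaled to 1000000 per sample. Their own mean TPM, fold changes and p-values were not used.

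Counts were tested as deposited with edgeR 4.0.16 in R 4.3.3, by its quasi-likelihood test after filterByExpr and TMM scaling, with no replicate block, over 11973 genes with Benjamini-Hochberg adjustment. A gene is said to rise or fall at an adjusted p below 0.05. Standard errors were derived from the F statistic, as the size of the log2 difference over its square root. CPM use the TMM library sizes. The common dispersion corresponded to 5.21% variation between replicates, and replicate pairs differed by more than sampling noise (chi-square per degree of freedom 2.68 to 7.40). With 3 against 3, an exact permutation test of a single gene cannot go below 0.10.

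The alternatives were DESeq2 1.42.0, total counts, DESeq2 size factors, at least 10 counts in every sample, no filter, a replicate block, limma 3.58.1 on log2(TPM + 1) and log2(TPM + 0.1) for genes with at least 1 TPM in 3 samples, and each sample left out. The procedure was tested on simulated data in which few genes changed, as often up as down. It therefore does not bear on the choice of scaling. The members and lists were chosen with earlier results of these data known. All members and, in lists of at most 12 tested genes, every tested gene are named, otherwise the 4 largest differences that passed without overlap between groups. Untested genes and markers named beside a result were chosen after their values were seen.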

Additional observations from a re-analysis of the deposited data

How the results depend on the processing

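For the 9 tested cathepsins, 126 combinations of gene and alternative were run, of which 113 kept direction and side of the threshold. *CTSD*, *CTSK*, *CTSH*, *CTSC* and *CTSS* kept both in all of theirs, as did *CTSF*, which passed in none. *CTSZ* turned from -0.12 to 0.031 with total counts, 0.049 with limma on log2(TPM + 1) and 0.050 on log2(TPM + 0.1). Between 5 and 7 cathepsins passed with each sample left out. In the same 3 settings *AZU1* turned to 0.059, 0.074 and 0.074, *GGA2* to 0.049, 0.10 and 0.10, and *CST3* to 0.15, 0.16 and 0.16. *CST3* also turned to 0.016 with at least 10 counts in every sample and 0.00028 with the replicate block, *GGA1* to 0.038 and 0.039 and *CSTB* to 0.011 and 0.011 on TPM. With each sample left out, *CST3* ranged from -0.050 to 0.030 and *NAGPA* from -0.024 to 0.053. The number of inhibitors that passed was 3 with total counts, 3 and 3 with limma on TPM and 2 with at least 10 counts in every sample, and 1 to 2 with each sample left out. Sorting genes that passed numbered 7 with total counts. The log2 ratio of the summed cathepsins was 0.95 in TPM, 0.82 in CPM, 0.27 without *CTSD*, and 0.93 to 0.97 with each sample left out. The cause was not tested. Replicate numbers did not pair the samples (correlations of deviations 0.019, -0.0071 and -0.048), and with the replicate block 6 cathepsins and 2 inhibitors (*CSTA* and *CST7*, the latter at 0.51) passed, while *MITF* did not, at 0.59. Depth limits *CTSL*, *CTSK* and *CTSF*.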

Other observations

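Over the 6 samples, the genes with the pattern most like *CTSD* were *GAS7*, *RASA4B* and *BMF*, by the root mean square difference of log2 CPM centred on the mean of each gene, which was 0.051, 0.053 and 0.061. Their mean levels went from 38.1 to 135 CPM, from 6.26 to 23.7 CPM and from 71.3 to 236 CPM. The genes most like *CTSS*, the member with the lowest log2 fold change, were *KHSRP*, *TCF3* and *CHERP*, with differences of 0.019, 0.022 and 0.023 and log2 fold changes of -0.85, -0.84 and -0.83. Likeness over 2 groups of 3 samples mostly reflects a like fold between the groups.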
